A study of Mus musculus with 19 samples.

Results

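The effect of a high fat, cholesterol and fructose (HFCF) diet was followed in livers of mice labelled as hepatocyte-specific knockouts of peroxisome proliferator-activated receptor gamma (PPARγ, gene Pparg). The HF-KO group held 6 liver libraries from knockout mice that were given the HFCF diet and that the labels class as having non-alcoholic steatohepatitis. The LF-KO group, which it was set against, held 4 liver libraries from the same kind of knockout mice on a low fat (LFCF) diet, classed as healthy. The libraries were taken by their titles and make up 10 of the 19 in the series. The other 9 come from control mice without the knockout, 5 on the HFCF diet (HF-C) and 4 on the low fat diet (LF-C), and were used only to set the same diet contrast beside the knockout one. Mice were adult, and the knockout was induced in hepatocytes before 24 weeks of HFCF feeding. The labels used here give no strain, sex, exact age, Cre driver or deleted exon. They name one animal per library, so each library was taken as a separate mouse. Whole liver was extracted, so liver cells other than hepatocytes, in which the gene was left, contributed RNA.

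PPARγ is a nuclear receptor that pairs with retinoid X receptors and switches on genes of fatty acid uptake and lipid droplet storage. It is best known from fat cells and macrophages, and hepatocytes make more of it when fat accumulates. Diets rich in fat, cholesterol and fructose are used to model steatohepatitis, in which fat-loaded hepatocytes, monocyte-derived macrophages, scar-forming stellate cells and dividing cells change together. Whole-liver RNA reads the sum of these cells. A transcript of a rarer cell type can therefore be higher because that cell is more frequent or because each cell holds more of it, and fewer cells of a type and less RNA per cell cannot be told apart in bulk samples.

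The libraries held 12098671 to 18696031 counted reads in HF-KO and 14447112 to 17014218 in LF-KO. Mitochondrial transcripts took 4.28 to 5.92% of reads over the 10 libraries. Replicates of one group differed by more than counting noise, with a mean chi-square per gene of at least 7.13 between any pair of them. The first principal component, with 36.69% of the variance, set 1 library apart from the others: HF-KO-2 lay at 80.77 while the other 9 lay between -26.95 and 30.78. The deviation of a library from its group tracked gene length in 7 of the 10 livers. Spearman's rho over genes, negative where long genes were low, was -0.474 in HF-KO-2, -0.337 in HF-KO-6 and -0.363 in LF-KO-3, and it was 0.357 in HF-KO-1, 0.392 in HF-KO-4, 0.445 in HF-KO-5 and 0.405 in LF-KO-1; in the other 3 it lay between -0.0788 and 0.119. On the second component, with 29.26%, LF-KO-3 and LF-KO-4 lay at 46.41 and 39.01 and LF-KO-1 and LF-KO-2 at 11.75 and 11.23. Levels below are TMM-scaled CPM (read counts scaled to a common library size) and fold changes are log2 of HF-KO over LF-KO from edgeR's quasi-likelihood test, called at a Benjamini-Hochberg adjusted p under 0.05 over all genes tested.

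In the knockout livers the HFCF diet went with more macrophage, chemokine, metalloproteinase and mitosis transcripts and with fewer transcripts of hepatocyte glucose, amino acid and sterol enzymes. Of 13624 genes tested, 493 were higher in HF-KO (3.62%) and 144 were lower (1.06%), together 637 (4.68%). These shares are the ones to set beside the counts called in each list below. The called genes that were higher had a median log2 fold change of 1.25 and the called genes that were lower had one of -0.80, against 0.01 over all genes tested. At an unadjusted p under 0.05 stood 2689 genes (19.7%), and the lowest adjusted p was 0.012. In 421 of the 493 and 103 of the 144, no HF-KO library overlapped any LF-KO library, against 649 genes (4.76%) and 372 genes (2.73%) over all genes tested. Most calls, 615, were protein-coding genes and 10 were lincRNAs.

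**Figure D1:**
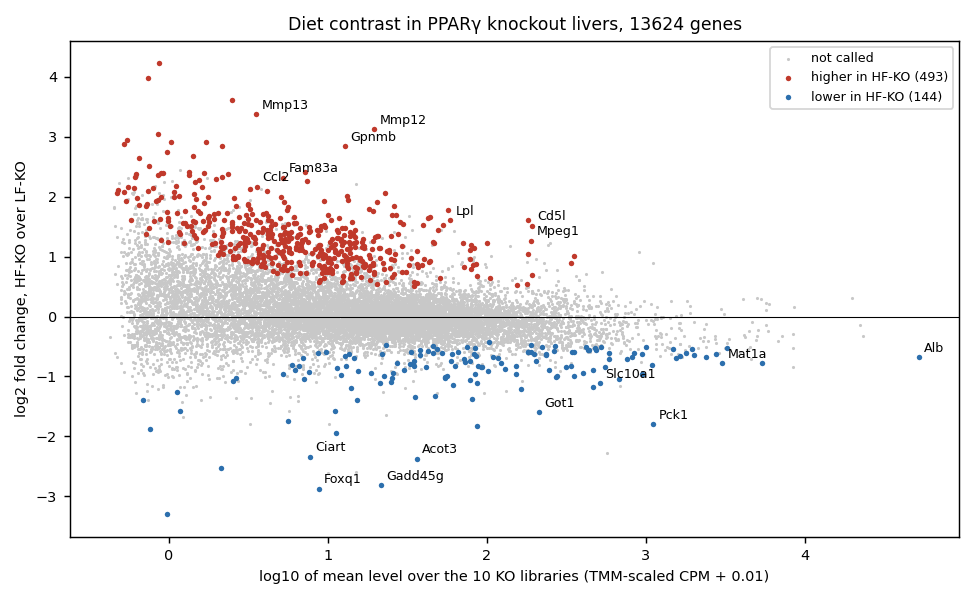
Each point is 1 of 13624 genes, with the log10 mean level over the 10 knockout libraries on the x axis and the log2 fold change of HF-KO over LF-KO on the y axis. Red points are the 493 genes called higher in HF-KO, with a median of 1.25, and blue points the 144 called lower, with a median of -0.80.

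By edgeR and limma-voom the adjusted calls depended most on 2 of the 4 LF-KO livers, and less on others. Without HF-KO-6 edgeR called 161 genes higher and 31 lower, without HF-KO-1 221 and 44, and without LF-KO-1 243 and 83. Without LF-KO-3 edgeR called 0 genes (1943 at an unadjusted p under 0.05, lowest adjusted p 0.061), limma-voom called 0 and DESeq2 called 533 higher and 194 lower. Without LF-KO-4 edgeR called 4 genes, among them Mmp13, Ms4a4c and Cyp46a1, limma-voom called 1 and DESeq2 called 575 higher and 195 lower. All 637 genes kept the sign of their fold change without either library, with a median size of 0.917 of the full value without LF-KO-3 and 0.946 without LF-KO-4. In the other direction, leaving out HF-KO-2 brought 868 genes higher and 346 lower, and with HF-KO-2 also left out the removal of LF-KO-3 still left 330 higher and 96 lower, that of LF-KO-4 353 and 94. On all 10 libraries DESeq2 called 925 genes higher (6.79%) and 461 lower (3.38%), among them all 637 of edgeR's calls. The authors' deposited table called 887 higher and 448 lower at an adjusted p under 0.05 and held 636 of the 637. By edgeR, that loss of adjusted calls holds for every gene named below, except Mmp13, Ms4a4c and Cyp46a1 without LF-KO-4. It does not hold by DESeq2, which still called 592 of the 637 genes once LF-KO-3 was removed. With LF-KO-4 removed instead, DESeq2 still called 594 of them.

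**Figure D2:**
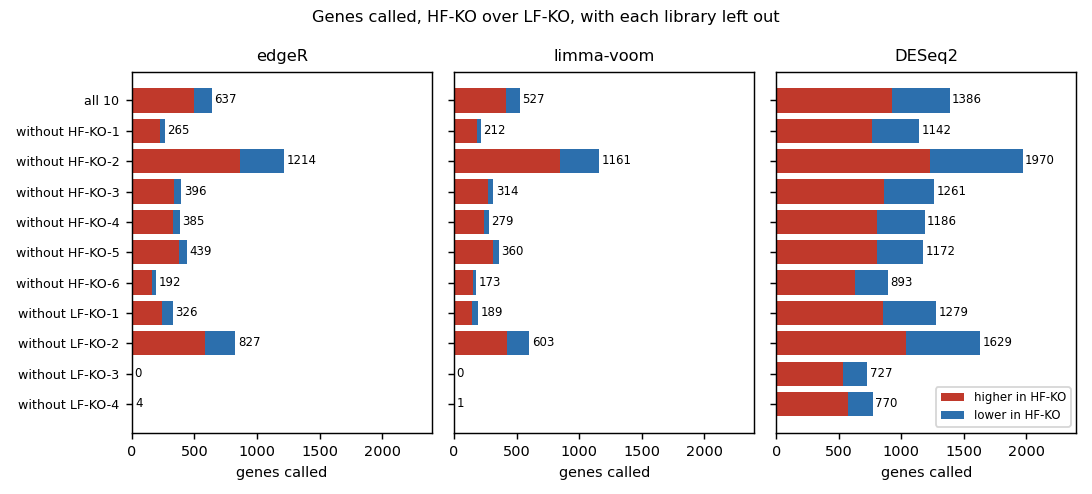
Bars give the number of genes called between HF-KO and LF-KO with all 10 libraries and with each library left out in turn, by edgeR, limma-voom and DESeq2; red is higher in HF-KO and blue is lower, and the total stands at the end of each bar. By edgeR the total is 637 with all libraries, 1214 without HF-KO-2, 0 without LF-KO-3 and 4 without LF-KO-4.

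Scaling also set the balance of directions. With library size alone in place of TMM, the median log2 fold change over all genes was 0.19, and 903 genes were called higher and 49 lower. All fold changes given here are relative to the TMM centre. With gene-length offsets 622 were higher and 241 lower.

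Pparg itself (ENSMUSG00000000440, chr6:115361221-115490401 in the deposited positions) was read first. Its transcript lay at 47.1 to 107 CPM with a median of 56.3 CPM in the 6 HF-KO livers, against 35.3, 41.1, 12.5 and 11.6 CPM in LF-KO livers 1 to 4. Every HF-KO liver was above every LF-KO liver, with HF-KO-2 and HF-KO-6 the highest and LF-KO-3 and LF-KO-4 the lowest. The difference in mean log2(CPM + 1) was 1.55 (two-sided exact permutation test over the 10 libraries, p = 0.00952, the smallest that 6 libraries against 4 can give as computed). In the fit across all genes it missed the threshold (log2 fold change 1.44 ± 0.39 (SE), adjusted p = 0.055), while DESeq2 gave an adjusted p of 0.0045. Control livers held 27.5, 25.6, 20.6, 31.4 and 21.6 CPM in HF-C and 19, 8.06, 5.92 and 12.6 CPM in LF-C. Every HF-KO liver thus held more Pparg transcript than every HF-C liver, and the LF-KO and LF-C ranges overlapped. Which exons the knockout removes is not stated, so counts over the whole gene, which also hold the exons left in place and the RNA of other cells, are no check of the knockout. Of the 6 PPAR and RXR genes edgeR called 0 (1 at an unadjusted p under 0.05, which was Pparg; DESeq2 and limma-voom called 1 each). Ppara, the main fatty acid sensor of hepatocytes, had a log2 fold change of 0.01 (adjusted p = 0.99). The partners Rxra, Rxrb and Rxrg had log2 fold changes of -0.13, -0.13 and 0.12. Per transcript length, in the deposited FPKM, Pparg stood at 38.5 ± 11.9 FPKM in HF-KO (SD, n = 6) and 12.9 ± 8.24 FPKM in LF-KO (SD, n = 4).

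Several genes of phagocytes were among the 10 smallest p-values, which included Tifab, Mmp13, Slc11a1, Pck1, Scd2, Fam83a, Entpd1 and Spi1. Slc11a1 (chr1:74375195-74386062), a metal transporter of the phagosome, lay at 17.9 to 22.6 CPM with a median of 19.6 CPM in HF-KO, against 10.4, 10.8, 9.63 and 9.44 CPM in LF-KO (log2 fold change 0.98 ± 0.13 (SE), adjusted p = 0.012). Spi1, which encodes the myeloid transcription factor PU.1, lay at 14 to 22.8 CPM with a median of 17.4 CPM in HF-KO, against 8.17, 8.19, 7.24 and 8.47 CPM in LF-KO (log2 fold change 1.14 ± 0.16 (SE), adjusted p = 0.012). For both, every HF-KO liver was above every LF-KO liver, and the LF-KO livers lay close together. Tifab and Entpd1 (the ectonucleotidase CD39) had log2 fold changes of 1.56 and 1.20.

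Of 10 general macrophage markers 7 were called higher and 0 lower, with a median log2 fold change of 1.13, against 3.62% of all genes called higher and a median of 0.01. Mpeg1, a pore-forming protein of macrophages, lay at 208 to 319 CPM with a median of 242 CPM in HF-KO, against 109.5, 136, 71.2 and 95.7 CPM in LF-KO (log2 fold change 1.26 ± 0.19 (SE), adjusted p = 0.012). Emr1, which encodes F4/80, lay at 35.5 to 47.5 CPM with a median of 38.7 CPM in HF-KO, against 19.7, 19.5, 5.82 and 10.2 CPM in LF-KO (log2 fold change 1.54 ± 0.29 (SE), adjusted p = 0.018). In both genes LF-KO-3 was the lowest liver. Cd68, a lysosomal glycoprotein, and Ptprc, which encodes the leukocyte antigen CD45, had log2 fold changes of 1.15 and 1.08. Csf1r, the receptor for macrophage colony-stimulating factor, missed the threshold (log2 fold change 0.91, adjusted p = 0.058); HF-KO-2 held 47.3 CPM of it, within the LF-KO range of 63.8, 49, 32.1 and 38.7 CPM. Summed over the list, the level was 654 to 1022 CPM in HF-KO and 212 to 436 CPM in LF-KO.

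Markers of recruited monocytes were called in 11 of 12, all higher, with a median of 1.68, against 3.62% of all genes called higher. Ms4a7 was the exception (log2 fold change 1.19, adjusted p = 0.28). Ccr2, the receptor that brings monocytes out of the marrow, lay at 7.61 to 26.1 CPM with a median of 12.2 CPM in HF-KO, against 2.87, 4.89, 2.91 and 3.22 CPM in LF-KO (log2 fold change 1.94 ± 0.34 (SE), adjusted p = 0.016). The integrin subunits Itgax (CD11c) and Itgam (CD11b) had log2 fold changes of 1.83 and 1.80, and the fractalkine receptor Cx3cr1 had 1.91. Fcgr1, a high-affinity Fc receptor, had 1.44 (adjusted p = 0.019). Cx3cr1, whose locus overlaps 4 other genes, overlapped between groups, through HF-KO-2 at 3.13 CPM and LF-KO-2 at 3.73 CPM. Summed over the list, the level was 61 to 139 CPM in HF-KO and 25.3 to 47.8 CPM in LF-KO. LF-KO-2 was the highest of the low fat livers in this sum and in the general macrophage sum.

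Markers of the lipid-associated macrophages described in fatty liver and adipose tissue were called in 8 of 12, all higher, with a median of 1.51. Over all genes 3.62% were called higher. Gpnmb, a membrane glycoprotein of lipid-laden macrophages, lay at 10.4 to 31.6 CPM with a median of 21.8 CPM in HF-KO, against 1.72, 8.07, 0.0746 and 0.824 CPM in LF-KO (log2 fold change 2.84 ± 0.70 (SE), adjusted p = 0.040). Trem2, a lipid-sensing receptor, lay at 7.86 to 16 CPM with a median of 9.8 CPM in HF-KO, against 1.21, 6.17, 0.597 and 0.824 CPM in LF-KO (log2 fold change 2.26 ± 0.54 (SE), adjusted p = 0.036). In both, the groups did not overlap, but LF-KO-2 stood well above the other low fat livers. Without LF-KO-2 the log2 fold change of Gpnmb was 4.44 and that of Trem2 3.59. Lgals3, which encodes galectin 3, moved with less spread (log2 fold change 1.91 ± 0.29 (SE), adjusted p = 0.013), at 22.3 to 46.7 CPM with a median of 26.2 CPM in HF-KO and 7.34, 11.9, 4.18 and 7.49 CPM in LF-KO. Capg, an actin-capping protein, had a log2 fold change of 1.70 (adjusted p = 0.019). Cd9, Fabp5, Cd63 and Lgals1 did not pass, with log2 fold changes of 0.31, -0.30, 1.31 and 0.72. Summed over the list, the level was 274 to 609 CPM in HF-KO and 95.6 to 273 CPM in LF-KO, so the groups nearly met. The C-type lectins Clec7a (dectin-1) and Clec4a2 were among the 10 largest rises, with log2 fold changes of 2.06 (adjusted p = 0.047) and 2.09 (adjusted p = 0.026).

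Families of phagocyte genes picked after their values had been seen are given as a description. Of 6 NADPH oxidase genes tested 4 were called higher, among them Cyba, Ncf4 and Cybb. Cybb, the gp91phox subunit, lay at 44.2 to 71.4 CPM with a median of 49.4 CPM in HF-KO, against 23.8, 25.5, 10.2 and 15 CPM in LF-KO. Of 12 Toll-like receptors tested 6 were called higher, with log2 fold changes from 1.28 for Tlr2 to 1.72 for Tlr8. All 3 C1q chains, the recognition unit of the classical complement pathway made mostly by macrophages, were called higher, with C1qb at 82 to 138 CPM with a median of 100.3 CPM in HF-KO and 56.4, 63.6, 32 and 39.6 CPM in LF-KO. All 4 integrin genes tested of the beta 2 family were called higher.

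**Figure D3:**
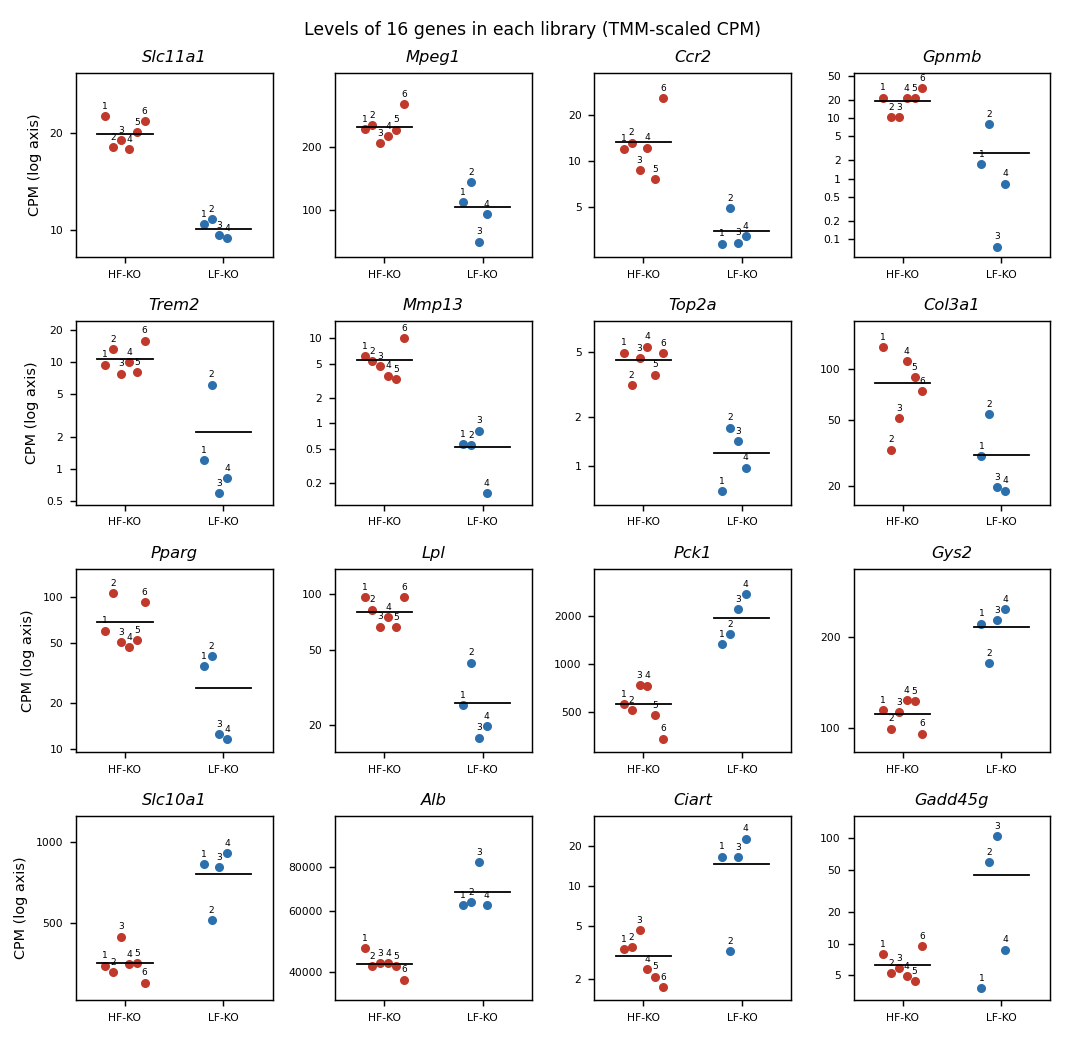
Levels of 16 genes in each knockout liver, in TMM-scaled CPM on a log axis, with HF-KO on the left in red and LF-KO on the right in blue; the small number at each point is the library number and the black line is the group mean. Slc11a1 and Mpeg1 are separate between groups, LF-KO-2 is raised for Gpnmb and Trem2, Col3a1 overlaps between groups, Ciart is low in LF-KO-2, and Gadd45g is spread over LF-KO from 3.77 to 106 CPM.

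Of 12 markers of resident Kupffer cells 2 were called, Cd5l and Il18bp, both higher, and the list median was 0.49. Cd5l, an apoptosis inhibitor secreted by liver macrophages, lay at 201 to 369 CPM with a median of 227 CPM in HF-KO, against 117, 114, 51.5 and 80.0 CPM in LF-KO (log2 fold change 1.52 ± 0.26 (SE), adjusted p = 0.015). Clec4f, the lectin specific to Kupffer cells in rodents, lay at 109.9 to 281 CPM with a median of 158 CPM in HF-KO, against 123, 125, 108 and 96.5 CPM in LF-KO and did not pass (log2 fold change 0.64, adjusted p = 0.13). Timd4, a marker of embryo-derived Kupffer cells, lay at 3.67 to 19.4 CPM with a median of 7.85 CPM in HF-KO, against 8.62, 7.4, 4.7 and 6.0 CPM in LF-KO (log2 fold change 0.39, adjusted p = 0.63). Without HF-KO-2, whose 19.4 CPM was the highest, the log2 fold change of Timd4 was 0.01. Folr2 and Clec1b had log2 fold changes of 0.91 (adjusted p = 0.058) and 0.60 (adjusted p = 0.11), and the scavenger receptors Marco and Cd163 had log2 fold changes of 0.25 and -0.22. Summed over the list, the level was 799.7 to 1347 CPM in HF-KO and 599 to 730.4 CPM in LF-KO.

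Lymphocyte markers were at low levels. Of the T and NK cell list 12 of 19 genes had enough counts to test and edgeR called 0 (3 at an unadjusted p under 0.05; DESeq2 called 1 higher and 0 lower, limma-voom 0). The 4 members with the smallest p were the NK receptor Klrk1 (log2 fold change 1.00, adjusted p = 0.12), the granzymes Gzma (log2 fold change 2.06, adjusted p = 0.12) and Gzmb (log2 fold change 1.24, adjusted p = 0.23) and the co-receptor Cd8a (log2 fold change 1.31, adjusted p = 0.32). The list median of 0.56 became 0.98 without LF-KO-4, and the summed level was 10.5 to 33.9 CPM in HF-KO and 8.5 to 18.4 CPM in LF-KO. Of 9 B and plasma cell genes tested edgeR called 0 (0 at an unadjusted p under 0.05; DESeq2 called 0 higher and 0 lower, limma-voom 0), with Cd79a, Ighm, Cd22 and Igkc at log2 fold changes of -0.68, 0.57, 0.48 and -0.34. Of 7 dendritic cell genes tested edgeR called 0 (3 at an unadjusted p under 0.05; DESeq2 called 0 higher and 0 lower, limma-voom 0), with Batf3, Flt3, Zbtb46 and Ccr7 at 0.90, 1.12, 0.39 and 0.75 on the log2 scale.

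Neutrophil genes were scarce, and 3 of 10 could be tested. S100a8, a calcium-binding alarmin, was called higher (log2 fold change 2.33 ± 0.49 (SE), adjusted p = 0.025), at 1.41 to 6.24 CPM with a median of 2.56 CPM in HF-KO and 0.894, 0.55, 0.672 and 0.375 CPM in LF-KO. Its partner S100a9 and the receptor Csf3r had log2 fold changes of 1.84 (adjusted p = 0.081) and 0.85 (adjusted p = 0.072). The sum over the list was 9.94 to 19.1 CPM in HF-KO and 4.83 to 6.64 CPM in LF-KO, and the defining markers Ly6g and Camp were at 0 in all 10 libraries. Blood was read through the erythroid list, of which 5 genes were tested and edgeR called 0 (0 at an unadjusted p under 0.05; DESeq2 called 0 higher and 0 lower, limma-voom 0). Hba-a1, an alpha globin, had a log2 fold change of 0.20 (adjusted p = 0.67), Hbb-bs and Hbb-bt, near-identical beta globins that may share reads, had log2 fold changes of 0.59 and 0.61, and Alas2 had 0.13. The summed erythroid level was 180.3 to 413 CPM in HF-KO and 221 to 269.5 CPM in LF-KO.

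Of 14 stellate cell markers Ngfr, Lrat and Tagln were called higher. Lrat, which stores retinol as ester in resting stellate cells, lay at 38.6 to 58.3 CPM with a median of 47.6 CPM in HF-KO, against 29.3, 37.6, 15.8 and 22.1 CPM in LF-KO (log2 fold change 0.87 ± 0.22 (SE), adjusted p = 0.041). Ngfr, a neurotrophin receptor, had a log2 fold change of 1.05 (adjusted p = 0.044), Tagln, whose locus overlaps Pcsk7 in these unstranded libraries, had a log2 fold change of 0.85 (adjusted p = 0.039) and Colec11 had a log2 fold change of 0.47 (adjusted p = 0.066). The summed stellate level was 343 to 510.3 CPM in HF-KO and 316 to 394 CPM in LF-KO. Of 14 sinusoidal endothelial markers Pecam1 was called higher (log2 fold change 0.66, adjusted p = 0.027), and Lyve1, Mrc1 and Cdh5 had log2 fold changes of 0.88, 0.50 and 0.72; the list median of 0.38 became 0.63 without LF-KO-1. Of 10 cholangiocyte genes tested Cftr, the chloride channel of bile ducts, was called higher, at 0.435 to 0.982 CPM with a median of 0.727 CPM in HF-KO and 0.0638, 0.122, 0.224 and 0.3 CPM in LF-KO (log2 fold change 2.07 ± 0.45 (SE), adjusted p = 0.027). Anxa13, Epcam and Cldn7 had 1.04, 0.77 and 0.81 on the log2 scale. The part that the number of macrophages or of any other cell type had in the results was not tested.

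Chemokines, the signals that recruit leukocytes, were called higher in 7 of 17 tested and lower in 0, with a median of 1.16. The share called higher over all genes was 3.62%. Of the 17, 16 had a log2 fold change above 0, and the lowest was -0.85. Without HF-KO-2 edgeR called 8 chemokines higher and 1 lower. Ccl2, the main ligand of Ccr2, lay at 3.55 to 8.62 CPM with a median of 4.62 CPM in HF-KO, against 0.83, 2.45, 0.597 and 0.674 CPM in LF-KO (log2 fold change 2.16 ± 0.42 (SE), adjusted p = 0.019). Ccl6 lay at 21.7 to 63.3 CPM with a median of 28.7 CPM in HF-KO, against 10.8, 12.8, 7.76 and 9.59 CPM in LF-KO (log2 fold change 1.84 ± 0.34 (SE), adjusted p = 0.018). Neither overlapped between groups. The neutrophil attractant Cxcl2 was scarce, at 0.92 to 2.26 CPM with a median of 1.08 CPM in HF-KO and 0.255, 0.183, 0.299 and 0.225 CPM in LF-KO (log2 fold change 2.39 ± 0.39 (SE), adjusted p = 0.014). Ccl4, Ccl22, Ccl24 and Cxcl16, whose locus overlaps Zmynd15, were the others, with log2 fold changes of 1.99, 1.75, 1.49 and 1.01. Per transcript length, the deposited FPKM put Ccl6 at 26.5 ± 11.8 FPKM and Ccl2 at 5.04 ± 1.91 FPKM in HF-KO (SD, n = 6), a higher level of Ccl6 per length. Ccl9, abundant in both groups, did not pass (log2 fold change 0.57, adjusted p = 0.45), nor did the interferon-induced Cxcl9 (log2 fold change 0.43, adjusted p = 0.68) and Cxcl10 (log2 fold change 0.69, adjusted p = 0.36).

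Cytokine genes were at low levels. Il1rn, which encodes the interleukin 1 receptor antagonist, lay at 10.3 to 21.3 CPM with a median of 13.8 CPM in HF-KO, against 6.13, 7.21, 4.78 and 4.35 CPM in LF-KO (log2 fold change 1.45 ± 0.24 (SE), adjusted p = 0.014), and Casp1, the inflammasome protease, had a log2 fold change of 0.98 (adjusted p = 0.038). Tnf and Il1b, which encode the inflammatory cytokines TNF and interleukin 1 beta, did not pass, with log2 fold changes of 1.53 (adjusted p = 0.064) and 1.35 (adjusted p = 0.069). Of the 11 cytokine and inflammasome genes tested 2 were thus called higher and 0 lower. Interferon response genes were called higher in 7 of 18, against 3.62% of all genes, with a median of 0.72. Irf7, a transcription factor that amplifies interferon, lay at 82.3 to 130.4 CPM with a median of 91.2 CPM in HF-KO, against 57.7, 55.5, 42.2 and 45.6 CPM in LF-KO (log2 fold change 0.96 ± 0.16 (SE), adjusted p = 0.014), though its locus overlaps Phrf1. Ifit2, Oasl2 and Ifi44 had log2 fold changes of 1.41, 0.98 and 1.12. Rsad2, the antiviral protein viperin, had a log2 fold change of 0.85 (adjusted p = 0.045), and Oas2 did not pass (a log2 fold change of 0.65 (adjusted p = 0.20)). Among MHC class II genes, Ciita, the master regulator of the class, lay at 3.13 to 9.76 CPM with a median of 6.11 CPM in HF-KO and 2.36, 2.32, 2.02 and 1.95 CPM in LF-KO (log2 fold change 1.54 ± 0.34 (SE), adjusted p = 0.030; its locus overlaps Dexi), and Ctss and H2-DMb1 were called too, with log2 fold changes of 1.22 and 1.16. The structural chains H2-Eb1, H2-Aa and H2-Ab1 had log2 fold changes of 0.97 (adjusted p = 0.067), 0.99 (adjusted p = 0.073) and 0.93 (adjusted p = 0.092). Acute phase genes of hepatocytes were called only in Lcn2 of 15 (log2 fold change 1.64 ± 0.41 (SE), adjusted p = 0.043); Saa1 and Saa2, close paralogs that may share reads, had log2 fold changes of 1.20 and 1.18, and Serpina3n had -0.51. Ubd, an inducible ubiquitin-like protein, was among the largest rises, at 4.01 to 24.6 CPM with a median of 8.3 CPM in HF-KO and 1.08, 2.93, 0.746 and 3.15 CPM in LF-KO (log2 fold change 2.42 ± 0.57 (SE), adjusted p = 0.034).

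Of 12 metalloproteinases and their inhibitors 4 were called higher and 0 lower, against 3.62% of all genes called higher. Mmp13 (chr9:7272514-7283333), the main interstitial collagenase of rodents, had the largest log2 fold change of the genes called at 5 CPM or more in a group, at 3.31 to 9.91 CPM with a median of 5.05 CPM in HF-KO and 0.574, 0.55, 0.821 and 0.15 CPM in LF-KO (log2 fold change 3.37 ± 0.43 (SE), adjusted p = 0.012). Mmp12 (chr9:7344381-7369499), the macrophage elastase, lay at 17.8 to 49.2 CPM with a median of 24.6 CPM in HF-KO, against 2.68, 9.72, 0.448 and 0.674 CPM in LF-KO (log2 fold change 3.13 ± 0.66 (SE), adjusted p = 0.026). Neither overlapped, and LF-KO-2 was again the highest low fat liver for Mmp12, whose log2 fold change was 4.53 without it. The inhibitors Timp1 and Timp3 had log2 fold changes of 2.00 (adjusted p = 0.024) and 1.13 (adjusted p = 0.034); the Timp1 locus overlaps Syn1. Timp1 lay at 1.16 to 3.57 CPM with a median of 2.47 CPM in HF-KO, against 0.383, 1.16, 0.523 and 0.375 CPM in LF-KO, and LF-KO-2 was inside the HF-KO range.

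Of 27 extracellular matrix genes 1 was called, Sparc, a collagen-binding glycoprotein, at 89.7 to 122 CPM with a median of 103 CPM in HF-KO and 54.7, 76.1, 50.5 and 45.3 CPM in LF-KO (log2 fold change 0.87 ± 0.16 (SE), adjusted p = 0.018). The list median was 0.60 and 24 of 27 were above 0. Over all genes 3.62% were called higher. Col1a1, a fibrillar collagen chain, lay at 5.74 to 72.3 CPM with a median of 31.5 CPM in HF-KO, against 17.5, 16.6, 10.7 and 7.79 CPM in LF-KO (log2 fold change 1.41 ± 0.55 (SE), adjusted p = 0.18). Col3a1, its partner in early scars, lay at 33 to 136 CPM with a median of 82.2 CPM in HF-KO, against 30.2, 53.9, 19.6 and 18.7 CPM in LF-KO (log2 fold change 1.43 ± 0.40 (SE), adjusted p = 0.064). Both overlapped between groups: HF-KO-2 held 5.74 CPM of Col1a1 and 33 CPM of Col3a1, the lowest of the HF-KO livers, while LF-KO-2 held 53.9 CPM of Col3a1. Loxl2, which cross-links collagen, and Lum, a collagen-binding proteoglycan, had log2 fold changes of 0.96 (adjusted p = 0.053) and 0.80 (adjusted p = 0.070). Without HF-KO-2 edgeR called 9 of the list higher. Long transcripts were low in HF-KO-2, as in HF-KO-6 and LF-KO-3. With gene-length offsets the list median was 0.57. The part of gene length in these values was otherwise not tested. Of 13 fibrogenic signals Pdgfb, the chief mitogen of stellate cells, was called (log2 fold change 1.55 ± 0.32 (SE), adjusted p = 0.024), and Tgfb1 and its receptors Tgfbr2 and Tgfbr1 had log2 fold changes of 0.76, 0.68 and 0.44. Acta2, the smooth muscle actin of activated stellate cells, had a log2 fold change of 0.58 (adjusted p = 0.17).

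Genes of the dividing cell were higher in the HFCF-fed knockout livers. Of 29 cell cycle genes tested 13 were called higher and 0 lower, with a median of 1.31, against 3.62% of all genes called higher. Top2a, the topoisomerase of dividing cells, lay at 3.13 to 5.36 CPM with a median of 4.73 CPM in HF-KO, against 0.702, 1.71, 1.42 and 0.974 CPM in LF-KO (log2 fold change 1.87 ± 0.28 (SE), adjusted p = 0.012). Mki67, the proliferation antigen Ki-67, lay at 4.79 to 10.7 CPM with a median of 7.34 CPM in HF-KO, against 2.55, 3.73, 2.76 and 1.35 CPM in LF-KO (log2 fold change 1.54 ± 0.28 (SE), adjusted p = 0.018). In neither gene did the groups overlap. Cdc20, an activator of the anaphase-promoting complex whose locus overlaps Elovl1, had a log2 fold change of 1.98 (adjusted p = 0.014), and Mcm5, a subunit of the replicative helicase, had a log2 fold change of 1.31 (adjusted p = 0.016). Ccnb1 and Cdk1, the cyclin and kinase that drive entry into mitosis, had log2 fold changes of 2.36 and 1.63, and the mitotic kinase Plk1 had 2.00. The p53 target Cdkn1a, an inhibitor of the cycle, was not called (log2 fold change 0.04, adjusted p = 0.98), with LF-KO livers at 5.94, 24.1, 13.6 and 4.72 CPM.

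Many mitosis promoters carry a CHR element (TTTGAA) together with CCAAT boxes (CCAAT), the arrangement bound by the DREAM and MMB complexes and by NF-Y. Letters were searched on both strands of the RefSeq promoter windows, 250 bases before to 50 after the start, on GRCm38.p6. Of the 13 called cell cycle genes 11 had a window; 8 held TTTGAA, against 18.1% of 27025 promoters, and all 11 held CCAAT, against 37.9%. Of the 24 members of the whole list with a window 13 held TTTGAA and 19 held CCAAT. The windows of Top2a and Cdc20 are shown because both genes were called and both hold the 2 elements. They are written 5′ to 3′ on the strand of the gene, with every TTTGAA and CCAAT match on either strand in capitals, at chr11:99024140-99024439 (minus strand) and chr4:118437294-118437593 (minus strand).
Top2a: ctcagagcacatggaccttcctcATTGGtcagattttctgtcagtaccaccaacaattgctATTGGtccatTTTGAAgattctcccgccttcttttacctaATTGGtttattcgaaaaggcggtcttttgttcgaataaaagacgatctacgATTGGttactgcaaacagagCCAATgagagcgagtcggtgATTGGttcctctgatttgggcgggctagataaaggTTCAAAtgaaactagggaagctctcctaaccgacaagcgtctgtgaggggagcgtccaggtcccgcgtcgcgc
Cdc20: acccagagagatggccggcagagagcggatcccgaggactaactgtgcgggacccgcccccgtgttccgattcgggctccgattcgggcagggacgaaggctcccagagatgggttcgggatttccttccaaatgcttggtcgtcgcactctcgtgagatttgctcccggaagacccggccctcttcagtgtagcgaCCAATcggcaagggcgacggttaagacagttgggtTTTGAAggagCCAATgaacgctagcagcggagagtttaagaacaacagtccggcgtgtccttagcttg
A match is only the presence of these letters in the window.

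Promoters of the called macrophage genes were searched in the same way for GAGGAAGT, letters of a PU.1 site. The search took in 25 called macrophage genes and left out Emr1, which was called but is listed under another symbol. Of the 25, 22 had a window and 4 held the letters (Ly6c2, Mmp12, S100a4 and Spp1), against 3.28% of all promoters. Of the 27 list members with a window 4 held them. The interferon-stimulated response element, searched as a pair of GAAA with any 2 bases between them, was in the window of 1 of the 5 called interferon genes that had one, Rsad2, and of 9 of the 13 list members that had one, against 3.49% of all promoters.

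Of 19 genes of the lipid droplet and lipid uptake, many of them PPARγ targets in fatty hepatocytes, 1 was called higher and 0 lower. It was Lpl, which encodes lipoprotein lipase, a gene that macrophages as well as fat-storing cells express. Lpl lay at 66.3 to 96.1 CPM with a median of 78.6 CPM in HF-KO, against 25.7, 43, 17.2 and 19.7 CPM in LF-KO (log2 fold change 1.60 ± 0.25 (SE), adjusted p = 0.013). The droplet proteins Cidec and Plin4, both known PPARγ targets in fat cells, had log2 fold changes of 0.63 (adjusted p = 0.28) and -1.09 (adjusted p = 0.072). Plin2, the general droplet coat protein, lay at 469 to 690.4 CPM with a median of 561 CPM in HF-KO, against 730.1, 514, 657 and 504 CPM in LF-KO, with broad overlap (log2 fold change -0.08, adjusted p = 0.83). The fatty acid transporter Cd36 lay at 179 to 347 CPM with a median of 235 CPM in HF-KO, against 140.0, 251, 87.9 and 39.3 CPM in LF-KO, and did not pass (log2 fold change 0.96, adjusted p = 0.20); LF-KO-2 reached 251 CPM. Fabp4, the fatty acid carrier of fat cells and macrophages, and Plin5 had log2 fold changes of 1.25 (adjusted p = 0.085) and -0.88 (adjusted p = 0.072). The list median was 0.21, and -0.01 to 0.23 with each library left out in turn. Over all genes 3.62% were called higher.

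Of 19 genes of fatty acid and triglyceride synthesis 1 was called, against 1.06% of all genes called lower. It was Dgat2, the acyltransferase of the last step, which was lower at 337 to 556 CPM with a median of 525 CPM in HF-KO, against 743, 667, 739.9 and 795 CPM in LF-KO (log2 fold change -0.61 ± 0.15 (SE), adjusted p = 0.041). Fasn, fatty acid synthase, lay at 145 to 626 CPM with a median of 359 CPM in HF-KO and 213, 805, 355 and 303 CPM in LF-KO (log2 fold change -0.09, adjusted p = 0.95), and Scd1 had a log2 fold change of 0.32 (adjusted p = 0.49). Srebf1, the transcription factor of the pathway, Thrsp and Slc25a1 had log2 fold changes of 0.77, -0.85 and -0.22. Scd2, the desaturase isoform with little expression in adult hepatocytes, did rise, at 13.7 to 33 CPM with a median of 28.1 CPM in HF-KO and 8.3, 8.93, 6.05 and 5.7 CPM in LF-KO (log2 fold change 1.80 ± 0.25 (SE), adjusted p = 0.012). Of 24 fatty acid oxidation genes 2 were called lower, among them Cyp4a10, a fatty acid hydroxylase, with a log2 fold change of -0.99. Of the 24, 21 were below 0, with a median of -0.32, and DESeq2 called 6 lower and 1 higher. The hormone Fgf21 and the thiolase Acaa2 had log2 fold changes of 0.88 (adjusted p = 0.063) and -0.41 (adjusted p = 0.081). Acot3, a peroxisomal thioesterase, had one of the largest falls, at 4.66 to 21.1 CPM with a median of 13.6 CPM in HF-KO and 102, 17.1, 102 and 58.5 CPM in LF-KO (log2 fold change -2.37 ± 0.49 (SE), adjusted p = 0.024); LF-KO-2 was within the HF-KO range, and the locus overlaps 4732463B04Rik. Smpd3, a neutral sphingomyelinase whose locus overlaps Prmt7, was among the largest rises (log2 fold change 2.01 ± 0.41 (SE), adjusted p = 0.022).

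Cholesterol synthesis genes, which liver cells lower when sterol is plentiful, fell in 5 of 25 and rose in 0, with a median of -0.35. Over all genes 1.06% were called lower. Sqle, squalene epoxidase, lay at 9.92 to 27 CPM with a median of 17 CPM in HF-KO, against 35.7, 52.6, 26.1 and 31 CPM in LF-KO (log2 fold change -1.03 ± 0.26 (SE), adjusted p = 0.045). Cyp51, lanosterol demethylase, had a log2 fold change of -0.75 (adjusted p = 0.028), and Hsd17b7, Nsdhl and Fdft1, whose locus overlaps Ctsb, were called too, with -0.62, -0.59 and -0.50. The sterol regulatory element TCACNCCAC was in 0 of the 3 called genes with a promoter window and in 1 of the 17 list members with one, against 1.22% of all promoters. Among genes of sterol export and storage, Abcg1 and Soat1, both also macrophage genes, rose (log2 fold change 1.12, adjusted p = 0.025 and log2 fold change 0.74, adjusted p = 0.030), Lcat, a hepatocyte product, fell (log2 fold change -0.60, adjusted p = 0.037) and Mylip had a log2 fold change of 0.43 (adjusted p = 0.12). Of 19 bile acid genes Slc10a1, the sodium-dependent bile acid importer of hepatocytes, fell, at 299 to 444 CPM with a median of 348 CPM in HF-KO and 826, 511, 804 and 909.7 CPM in LF-KO (log2 fold change -1.11 ± 0.17 (SE), adjusted p = 0.012). Nr1h4, the bile acid receptor FXR, Slc27a5 and the exporter Abcc4 had log2 fold changes of -0.46, -0.45 and 0.86.

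Of 15 hepatocyte markers 5 were called lower and 0 higher, against 1.06% of all genes called lower. Of the 15, 14 were below 0, and the median was -0.51. Alb, which encodes albumin, lay at 38022 to 46952 CPM with a median of 42090 CPM in HF-KO, against 62094, 63458, 82730 and 62265 CPM in LF-KO (log2 fold change -0.68 ± 0.14 (SE), adjusted p = 0.024). The groups did not overlap, and LF-KO-3 stood above the other low fat livers. Tat, tyrosine aminotransferase, and Cyp2e1 had log2 fold changes of -0.84 and -0.78. Summed, the markers were at 83214 to 103625 CPM in HF-KO and 117069 to 159382 CPM in LF-KO, the opposite direction to the macrophage sums. Of 12 hepatocyte transcription factors edgeR called 0 (3 at an unadjusted p under 0.05; DESeq2 called 0 higher and 0 lower, limma-voom 0), and Prox1, Esrra, Foxa2 and Hnf4a had log2 fold changes of -0.58, -0.32, -0.63 and -0.31. Of 15 complement and coagulation genes F7, Serpinc1, Proc and F2 fell, with log2 fold changes of -0.83, -0.61, -0.57 and -0.54. Of lipoprotein assembly genes, a family picked after its values had been seen, Mttp, Apoa5, Apom, Apoh and Tm6sf2 were called lower of 12.

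Of 16 genes of glucose production and glycogen 5 were called lower and 0 higher, with a median of -0.51. Over all genes 1.06% were called lower. Pck1 (chr2:173153048-173159273), the rate-limiting carboxykinase of gluconeogenesis, lay at 343 to 739 CPM with a median of 539 CPM in HF-KO, against 1329, 1530, 2211 and 2734 CPM in LF-KO (log2 fold change -1.80 ± 0.24 (SE), adjusted p = 0.012). Gys2, liver glycogen synthase, lay at 95.5 to 123 CPM with a median of 114 CPM in HF-KO, against 222, 164, 227 and 247 CPM in LF-KO (log2 fold change -0.95 ± 0.14 (SE), adjusted p = 0.012). In both genes all HF-KO livers were under all LF-KO livers, and LF-KO-4 was the highest. Slc37a4, the glucose 6-phosphate transporter, Sds, which shares its locus with Plbd2, and Fbp1 were called too, with log2 fold changes of -0.83, -1.12 and -0.51. The hexokinases Hk2 and Hk3 and the pyruvate kinase Pkm, isoforms of cells other than adult hepatocytes and picked after their values had been seen, were called higher of 6, with log2 fold changes of 1.87, 1.41 and 1.09. Of 8 fructose genes edgeR called 0 (1 at an unadjusted p under 0.05; DESeq2 called 0 higher and 0 lower, limma-voom 0), and of 11 insulin signalling genes 0 (2 at an unadjusted p under 0.05; DESeq2 called 0 higher and 0 lower, limma-voom 0). Glyctk, Dak, Slc2a8 and Txnip of the first list had log2 fold changes of -0.42, -0.43, -0.34 and -0.26, and Trib3, Igfbp1, Igfbp2 and Insr of the second had 0.53, -0.64, -0.67 and -0.46.

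Of 18 genes of the urea cycle and amino acid breakdown 6 were called lower and 0 higher, and all 18 had fold changes below 0. Over all genes 1.06% were called lower. Asl, the argininosuccinate lyase of the urea cycle, lay at 256 to 403 CPM with a median of 284 CPM in HF-KO, against 425, 515, 994 and 868 CPM in LF-KO (log2 fold change -1.18 ± 0.24 (SE), adjusted p = 0.020). Gls2, liver glutaminase, had a log2 fold change of -0.84 (adjusted p = 0.020) and the transaminase Gpt had a log2 fold change of -0.65 (adjusted p = 0.035). Got1, the cytosolic aspartate transaminase, lay at 88.7 to 172 CPM with a median of 110.4 CPM in HF-KO, against 127, 304, 644 and 353 CPM in LF-KO (log2 fold change -1.60 ± 0.34 (SE), adjusted p = 0.025); LF-KO-1 lay within the HF-KO range, LF-KO-3 stood highest, and without LF-KO-3 the log2 fold change was -1.15. Hal, the histidine ammonia-lyase, had a log2 fold change of -1.0 (adjusted p = 0.045). Mat1a, which makes S-adenosylmethionine in hepatocytes, lay at 2027 to 2897 CPM with a median of 2268 CPM in HF-KO, against 4099, 3271, 4579 and 4108 CPM in LF-KO, with no overlap (log2 fold change -0.78 ± 0.15 (SE), adjusted p = 0.018). Shmt1, whose locus overlaps Smcr8, was the other of 20 methionine and one-carbon genes to be called (log2 fold change -0.47, adjusted p = 0.039), and Mthfd1 and Aldh1l1 had log2 fold changes of -0.52 and -0.61. Of 16 respiratory chain genes edgeR called 0 (4 at an unadjusted p under 0.05; DESeq2 called 0 higher and 3 lower, limma-voom 0). Uqcrc1, Ndufv1, Atp5a1 and Cyc1 had log2 fold changes of -0.32, -0.29, -0.30 and -0.27.

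The 10 largest falls were Foxq1, Gadd45g, Acot3, Ciart, Cyp46a1, Lpin1, Pck1, Enho, Got1 and Lrrc16a, and in several the low fat livers varied widely. Foxq1, a forkhead factor, lay at 0.609 to 4.93 CPM with a median of 2.15 CPM in HF-KO, against 4.08, 22.5, 42.1 and 4.27 CPM in LF-KO (log2 fold change -2.88 ± 0.67 (SE), adjusted p = 0.033). Gadd45g, a stress-induced gene, lay at 4.36 to 9.42 CPM with a median of 5.54 CPM in HF-KO, against 3.77, 59.4, 106 and 8.77 CPM in LF-KO (log2 fold change -2.82 ± 0.67 (SE), adjusted p = 0.036). In both, LF-KO-2 and LF-KO-3 were high while LF-KO-1 and LF-KO-4 lay within or near the HF-KO range, and without LF-KO-3 the log2 fold changes were -2.06 and -1.93. Lpin1, a phosphatidate phosphatase that responds to glucocorticoids, lay at 20.2 to 69.9 CPM with a median of 41.4 CPM in HF-KO, against 58.3, 161, 175 and 218 CPM in LF-KO (log2 fold change -1.83 ± 0.35 (SE), adjusted p = 0.019). Its fellow glucocorticoid-responsive genes Fkbp5, Tsc22d3 and Tat were called lower as well, of 9 in a family picked after its values had been seen. Enho, the precursor of the peptide adropin, had a log2 fold change of -1.75 (adjusted p = 0.043), and -1.19 without LF-KO-4. Cyp46a1, a cholesterol 24-hydroxylase, lay at 2.96 to 8.02 CPM with a median of 5.13 CPM in HF-KO, against 26.9, 23, 23 and 8.17 CPM in LF-KO (log2 fold change -1.94 ± 0.34 (SE), adjusted p = 0.016); the highest HF-KO liver and LF-KO-4 almost met. Lrrc16a, an actin-capping regulator, had a log2 fold change of -1.39 (adjusted p = 0.024).

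Of 17 circadian clock genes 4 were called lower (Ciart, Cry1, Hlf and Tef) and 0 higher, with a median of -0.46. Over all genes 1.06% were called lower. Ciart, a repressor of the clock, lay at 1.73 to 4.7 CPM with a median of 2.88 CPM in HF-KO, against 16.7, 3.24, 16.5 and 22.9 CPM in LF-KO (log2 fold change -2.34 ± 0.42 (SE), adjusted p = 0.017); its locus overlaps C920021L13Rik. Cry1, a core repressor, lay at 3.93 to 5.92 CPM with a median of 5.11 CPM in HF-KO, against 7.4, 13, 11.9 and 8.77 CPM in LF-KO (log2 fold change -1.04 ± 0.19 (SE), adjusted p = 0.017). For Ciart LF-KO-2 lay within the HF-KO range, whereas Cry1 did not overlap. Hlf and Tef, clock-controlled transcription factors, had log2 fold changes of -0.75 (adjusted p = 0.031) and -0.62 (adjusted p = 0.048). Per1 and Per2 were not called (log2 fold change -1.26, adjusted p = 0.10 and log2 fold change -0.85, adjusted p = 0.085), nor was Arntl, which peaks opposite to them (log2 fold change 0.17, adjusted p = 0.89). The labels used here give no time of day of collection. Of the 4 called genes 3 (Ciart, Cry1 and Tef) held the E-box CACGTG in their promoter window, against 7.24% of 27025 promoters, and 0 held the D-box TTANGTAA, against 2.34%. Of the 15 list members with a window 5 held the E-box and 1 the D-box. The windows of Ciart and Cry1, which had the lowest p-values of the list, are shown 5′ to 3′ on the gene's strand with CACGTG in capitals, at chr3:95882179-95882478 (minus strand) and chr10:85185005-85185304 (minus strand).
Ciart: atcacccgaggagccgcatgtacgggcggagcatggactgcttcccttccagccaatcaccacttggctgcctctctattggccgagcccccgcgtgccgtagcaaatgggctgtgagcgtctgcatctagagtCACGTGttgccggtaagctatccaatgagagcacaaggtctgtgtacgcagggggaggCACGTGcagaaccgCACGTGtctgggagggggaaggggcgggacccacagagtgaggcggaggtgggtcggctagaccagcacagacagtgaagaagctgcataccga
Cry1: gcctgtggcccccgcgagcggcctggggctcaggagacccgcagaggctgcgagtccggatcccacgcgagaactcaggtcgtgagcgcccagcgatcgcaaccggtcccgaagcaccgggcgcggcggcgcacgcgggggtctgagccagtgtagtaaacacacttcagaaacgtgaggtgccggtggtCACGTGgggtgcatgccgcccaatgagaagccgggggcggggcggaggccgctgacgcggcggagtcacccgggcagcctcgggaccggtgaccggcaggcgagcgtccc
The Ciart window holds the letters 3 times and the Cry1 window 1 time.

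The remaining lists held few calls. Of 16 NRF2 targets Hmox1, heme oxygenase, and Srxn1 rose, with log2 fold changes of 0.95 and 0.80, and Gstm3 and Slc7a11 had 1.00 and 1.47. Of 18 unfolded protein and integrated stress response genes Atf3 rose (log2 fold change 1.78, adjusted p = 0.024), and Herpud1 and Creld2 had -0.52 and -0.74. Of 12 p53 targets Gdf15, a stress-secreted cytokine, rose (log2 fold change 1.45, adjusted p = 0.027), and Btg2, Trp53inp1 and Eda2r had 0.57, 0.55 and 0.63. Of 14 genes tested of the growth hormone axis and sex-biased metabolism Igfals, the carrier of circulating IGF1, and Cyp17a1 fell, with -0.96 and -1.35. Cyp2d9 and Hsd3b5, both male-biased in mice, had log2 fold changes of -0.76 (adjusted p = 0.099) and -2.17 (adjusted p = 0.16), and the list median of -0.60 became -0.36 without LF-KO-2.

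Of 13 xenobiotic genes Cyp2c55 rose and the receptor Nr1i3 (CAR) fell, with log2 fold changes of 1.45 and -0.88, and the receptor Nr1i2 (PXR) and its target Cyp3a11 had -0.64 and 0.89. Of 10 fetal and tumour markers Scd2, Sox4 and Cd24a were called higher, and Golm1 had a log2 fold change of 0.79 (adjusted p = 0.069). Of 16 lysosome genes Lgmn was called higher (log2 fold change 0.86, adjusted p = 0.019), and Ctsz and Ctsd had -0.36 and 0.34. Of 12 iron genes edgeR called 0 (4 at an unadjusted p under 0.05; DESeq2 called 0 higher and 0 lower, limma-voom 0); the hepcidin genes Hamp and Hamp2, close paralogs that may share reads, had -1.16 and -1.27, and Tfr2 and Slc11a2 had -0.51 and 0.37. The adipocyte list had 1 gene of 6 with enough counts to test, Fabp4, and Lep was at 0 in all 10 libraries.

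**Figure D4:**
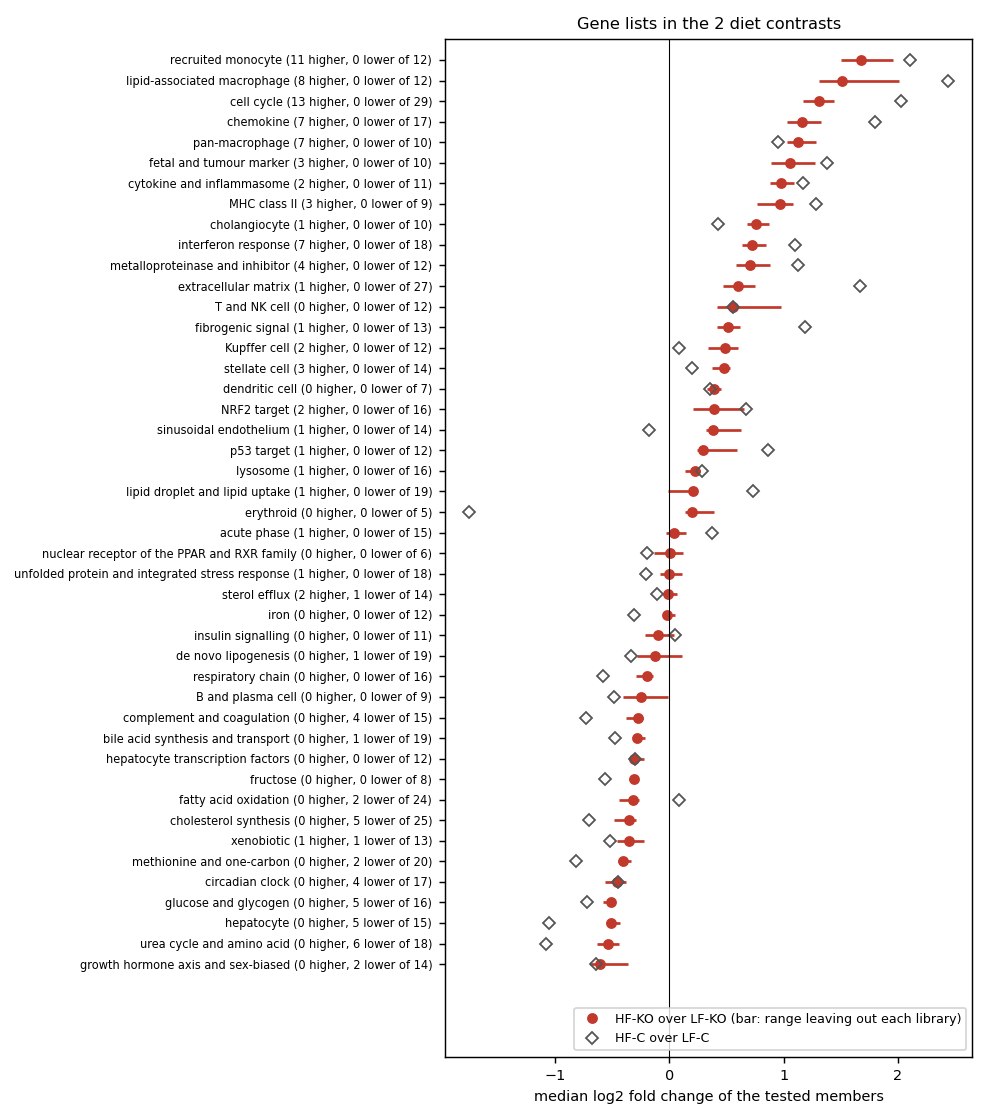
Median log2 fold change of the tested members of each of 45 gene lists with at least 5 tested members, ordered by the HF-KO over LF-KO value (red circles, with the range of medians when each library is left out as a bar); open diamonds are the same lists in HF-C over LF-C, and the counts called between HF-KO and LF-KO stand beside each name. Recruited monocyte, lipid-associated macrophage and cell cycle lists stand at the top, and growth hormone axis, amino acid, glucose and hepatocyte lists at the bottom; for the extracellular matrix the circle lies at 0.60 and the diamond at 1.67.

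The same diet contrast was made in control livers. Between HF-C and LF-C, which share no library with the knockout contrast, edgeR called 1470 of 13825 genes higher (10.6%) and 988 lower (7.15%). One control library stood apart, LF-C-2, with 1.64% mitochondrial reads; without it the counts were 2051 and 1427. The lower count was 450 to 634 without any 1 of the 5 HF-C libraries and 575 with LF-C-1 left out; leaving out LF-C-3 gave 1628 and LF-C-4 gave 1572. Of the genes called higher in the knockout contrast, 330 were called higher in controls too, which is 66.9% of the knockout list and 22.4% of the control list. For lower genes it was 94, or 65.3% and 9.51%. The fold change was smaller in the knockout contrast in 274 of the 330 and 84 of the 94. Of the genes tested in both contrasts 482 of 491 called higher and 139 of 143 called lower had the same sign in controls. All these counts are of genes picked by their calls. The matching shares over the 13431 genes tested in both contrasts are not given here, so the counts have no baseline.

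**Figure D5:**
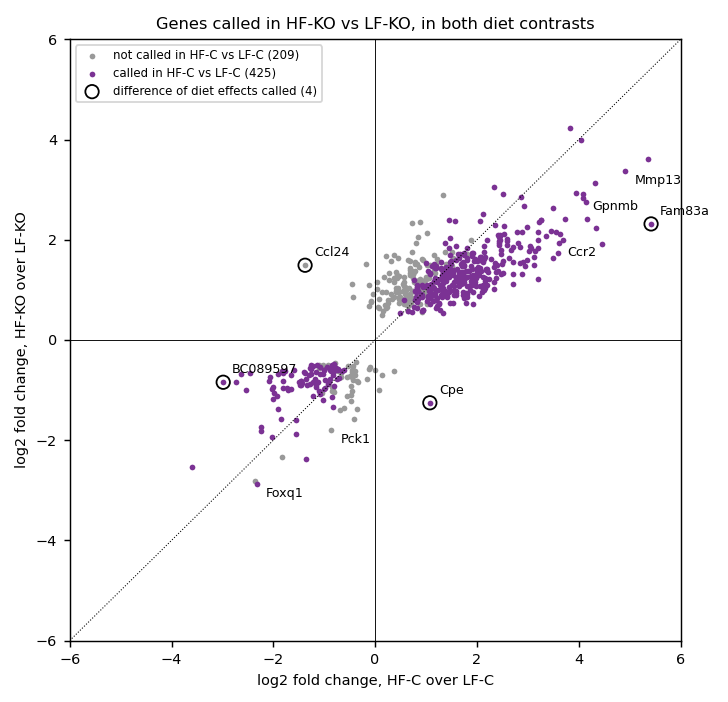
Genes called between HF-KO and LF-KO, with the log2 fold change of HF-C over LF-C on the x axis and of HF-KO over LF-KO on the y axis; purple points are also called in controls, grey points are not, circles mark the 4 genes whose difference of diet effects was called, and the dotted line is equality. Of 634 genes shown 425 are also called in controls. Of the 4 circled genes Ccl24 and Cpe lie in the quadrants of opposite sign, which hold other, uncircled genes too.

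Whether the diet effect itself differed was tested as the interaction over all 19 libraries. Of 14391 genes 18 had a higher and 11 a lower diet effect in the knockout (0.125% and 0.0764%), together 29 (0.202%). Without LF-C-2 the counts were 26 and 15. Fewest were called without LF-KO-1 (2 and 5) or LF-KO-2 (3 and 4), and most without HF-KO-1 (29 and 19). The higher count was 11 without HF-KO-3, HF-KO-5, LF-KO-3 or HF-C-1. The lower count was 7 without HF-KO-4, HF-C-1 or HF-C-4, 5 without HF-C-2, 17 without LF-KO-4 and 19 without LF-C-3. Cidec, Plin4, Cyp2c29, Fam83a and Susd4 were called whichever of the 19 libraries was left out, and each of the 29 kept its sign. The 2 smallest p-values were droplet genes. Cidec had a log2 fold change of 0.63 in the knockout and 4.13 in controls (difference -3.49, adjusted p = 7.6e-04), with 11.4, 15, 9.17, 11, 7.61 and 20.4 CPM in HF-KO, 5.62, 10.6, 10.7 and 5.02 CPM in LF-KO, 172, 219.7, 125, 212 and 178 CPM in HF-C and 8.26, 16.4, 6.94 and 9.98 CPM in LF-C. All Cidec values in HF-KO lay under all those in HF-C. Plin4 had a log2 fold change of -1.09 in the knockout and 2.23 in controls (difference -3.31, adjusted p = 7.6e-04); its locus overlaps Hdgfrp2.

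Fam83a, which rose in both genotypes, rose less in the knockout. It lay at 5.57 to 12.4 CPM with a median of 7.04 CPM in HF-KO, against 1.91, 2.32, 1.05 and 0.824 CPM in LF-KO (log2 fold change 2.32 ± 0.33 (SE), adjusted p = 0.012), and at 35.1, 37.3, 15.4, 46.4 and 35.9 CPM in HF-C, against 0.714, 0.948, 0.817 and 0.665 CPM in LF-C, with a log2 fold change of 5.42 in controls (difference -3.10, adjusted p = 0.0078). Ccl24, an eosinophil attractant made by macrophages, had a log2 fold change of 1.49 in the knockout and -1.38 in controls (difference 2.87, adjusted p = 0.022), at 2.68 to 5.05 CPM with a median of 2.91 CPM in HF-KO and 1.08, 1.1, 1.57 and 0.974 CPM in LF-KO. Cd163, a Kupffer cell scavenger receptor, had a log2 fold change of -0.22 in the knockout and -3.52 in controls (difference 3.31, adjusted p = 0.041). Cpe, carboxypeptidase E, was the 1 gene called in opposite directions, with a log2 fold change of -1.25 in the knockout and 1.08 in controls (difference -2.33); it was named after its values had been seen.

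Several hepatocyte genes fell on the diet in controls and had a called difference of diet effects. Cyp2c29, a drug-metabolising P450, lay at 526 to 852 CPM with a median of 715 CPM in HF-KO, against 488, 694, 621 and 659 CPM in LF-KO (log2 fold change 0.20, adjusted p = 0.54), and had a log2 fold change of -1.79 in controls (difference 1.99, adjusted p = 0.0025). Cyp2c37 and Cyp2c54, its near neighbours in a family of similar sequence whose reads may be shared, had log2 fold changes of -0.15 and -0.39 in the knockout and -2.28 and -2.88 in controls. Slco1a1, an organic anion transporter with male-biased expression in mice, had -0.76 in the knockout and -4.34 in controls (difference 3.58, adjusted p = 0.017), and HF-KO-1 held 41.3 CPM of it against at least 147 CPM in the other HF-KO livers. Hsd3b5 lay at 1.51 to 41.1 CPM with a median of 12.7 CPM in HF-KO, against 36.2, 8.62, 69.3 and 207 CPM in LF-KO, and at 0.113, 0.175, 0.57, 0.219 and 0.146 CPM in HF-C, against 72.5, 238, 114 and 151 CPM in LF-C. Its log2 fold change was -2.17 in the knockout and -9.14 in controls (difference 6.98, adjusted p = 0.017), and the size of the control value rests on a few reads in each HF-C library. Susd4, Lrtm1 and BC089597 had log2 fold changes of -0.42, 0.25 and -0.84 in the knockout and -2.78, -2.52 and -2.99 in controls. Without LF-KO-1 the adjusted p of the difference was 0.05 or more for Hsd3b5, and without LF-KO-1 or LF-KO-2 for Cyp2c37, Cyp2c54, Slco1a1, Lrtm1, BC089597 and Ccl24, reaching at most 0.067. Cd163 was called in 7 of the 19 settings that leave out 1 library, Cpe in 8 and Alas2 in 5.

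For whole lists the contrasts are given side by side. Over all genes tested 3.62% were called higher in the knockout and 10.6% in controls, and 0.202% had a called difference. The share of all genes at an unadjusted p under 0.05 for the difference is not given here. Of 27 extracellular matrix genes 1 was called higher in the knockout, with a median of 0.60, against 23 in controls, with a median of 1.67. The knockout count varied: 11 of 27 had an unadjusted p under 0.05, DESeq2 called 7 higher, and edgeR called 9 higher without HF-KO-2. By edgeR 0 of 27 had a called difference of diet effects (13 at an unadjusted p under 0.05, DESeq2 3, limma-voom 0). Of the cell cycle list 13 of 29 tested were called higher in the knockout, with a median of 1.31, against 21 of 30 in controls, with a median of 2.03, and 0 of 30 had a called difference by edgeR (5 at an unadjusted p under 0.05, DESeq2 1, limma-voom 0). For lipid-associated macrophage markers the medians were 1.51 in the knockout and 2.44 in controls, and for the general macrophage list 1.13 in the knockout and 0.95 in controls. For lipid droplet genes 1 of 19 was called higher in the knockout and 9 of 21 in controls, and Cidec and Plin4 were those with a called difference.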

How the data were processed

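RNA was taken from whole liver and sequenced as paired reads from libraries that do not keep strand, aligned with STAR, per the labels' protocols; the submitters' processing notes name HTSeq 0.6.1 and DESeq2, and for the genome build and gene annotation the entry is: not given in the sources used here. Of 23922 gene identifiers matched to GENCODE M21 on GRCm38, 23910 have deposited positions that overlap that annotation. The authors deposited raw read counts per gene, FPKM, and per comparison a log2 fold change with p-values; counts of a library shared by several tables were identical, and the deposited FPKM could be recomputed from the counts and the deposited gene lengths. Reads of genes that overlap another gene cannot be told apart here.

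From the counts, TMM factors, a filter on low counts (filterByExpr) and quasi-likelihood tests were computed with edgeR 4.0.16 in R 4.3.3, and calls were made at a Benjamini-Hochberg adjusted p under 0.05. The 10 knockout libraries were fitted alone, the 9 control libraries alone, and the difference of diet effects over all 19 libraries with 4 group means. Standard errors are the size of the log2 fold change over the square root of F. Printed CPM use TMM factors over all 19 libraries. DESeq2 1.42.0, limma-voom (limma 3.58.1), other scalings, no filter, a replicate block, gene-length offsets and leaving out libraries were alternatives. The code was tested on simulated data.

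Named genes were Pparg, the 10 largest rises, the 10 largest falls and the 10 smallest p-values among genes called with at least 5 CPM on average in a group (Gm, Rik and -ps symbols left out), the 10 smallest p-values of the difference of diet effects, and the 4 members with the smallest p of each list. Other genes were named for their known role or their values after these had been seen, and some genes are not reported here. The lists and the comparison were chosen with earlier results of these data known. Promoter sequences are from RefSeq on GRCm38.p6.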

Additional observations from a re-analysis of the deposited data

Results flagged for a closer look

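Among the genes named, 418 gene-by-group sets of 4 or 6 libraries were looked at for 1 library far from the others. In 15 sets there was one. The sets share libraries and the genes were picked mostly by their values, so this count has no baseline. Some of the gaps were small, and the range of the other libraries of the group stands in brackets. In LF-KO-4, Cyp46a1 lay at 8.17 CPM (the other LF-KO livers at 23.0 to 26.9 CPM) and Trib3 at 5.55 CPM (10.1 to 10.9). In LF-KO-3, Alb lay at 82730 CPM (62094 to 63458). LF-KO-2 held 47.7 CPM of Slc11a2 (30.7 to 33). LF-KO-1 held 7.47 CPM of Oasl2 (6.72 to 6.82) and 8.49 CPM of Btg2 (9.48 to 9.67). HF-KO-2 was low for Csf3r at 2.78 CPM (5.63 to 7.31), Tgfb1 at 9.57 CPM (18.8 to 23.4) and Tgfbr2 at 33.9 CPM (54.3 to 70.7). It was high for Txnip at 92.1 CPM (55.8 to 63.9) and Cyc1 at 200 CPM (168 to 177). HF-KO-6 was high for Ccr7 at 1.54 CPM (0.736 to 0.932) and low for Igfbp2 at 145 CPM (232 to 297) and Uqcrc1 at 190 CPM (210 to 218). HF-KO-1 was low for Slco1a1 at 41.3 CPM (147 to 308).

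The diet effect differed between genotypes by the interaction test (edgeR, adjusted p under 0.05) for these genes, given as the difference of log2 fold changes, knockout minus control. It was negative for Fam83a (-3.10), Cidec (-3.49), Plin4 (-3.31) and Cpe (-2.33). It was positive for Cyp2c29 (1.99), Susd4 (2.37), Cyp2c37 (2.13), BC089597 (2.15), Lrtm1 (2.78), Slco1a1 (3.58), Cyp2c54 (2.49), Ccl24 (2.87), Hsd3b5 (6.98) and Cd163 (3.31). It was positive also for Alas2 (1.42), an erythroid gene, which was called in 5 of the 19 settings that leave out 1 library. Of these, Fam83a, BC089597, Ccl24 and Cpe were also called between HF-KO and LF-KO.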

How the results depend on the processing

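With each library left out in turn, edgeR called 0 to 868 genes higher and 0 to 346 lower between HF-KO and LF-KO, DESeq2 533 to 1226 and 194 to 744, and limma-voom 0 to 846 and 0 to 315. Between HF-C and LF-C the ranges were 1001 to 2051 and 450 to 1628, and for the difference of diet effects 2 to 29 and 4 to 19. The Pparg difference ranged over 1.27 to 1.85. Library size alone gave 903 and 49 genes in the knockout, 2730 and 326 in controls, and 8 and 7 for the difference. DESeq2 gave 925 and 461, 2103 lower in controls, and 115 and 98 for the difference; limma-voom gave 10 and 6 for the difference. No filter gave 17 lower for the difference. All 19 libraries in 1 fit gave 94 lower in the knockout and 1883 lower in controls. Gene-length offsets gave 241 lower, 1633 lower in controls, and 40 and 20 for the difference. Leaving out HF-KO-2 with LF-KO-3 gave 330 and 96, with LF-KO-4 353 and 94; gene-length offsets gave 106 and 19 without LF-KO-3 and 135 and 28 without LF-KO-4 (these 4 settings were chosen after seeing the data).

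A replicate block over libraries numbered 1 to 4 gave 151 and 24 genes in the knockout, 517 and 149 in controls, and 0 and 2 for the difference. Same-numbered knockout libraries correlated at 0.21, 0.187, 0.127 and 0.072 in their deviations from the group means, not every library correlated best with its own number, and the labels do not say that numbers pair mice.

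Signs turned for genes near 0: Susd4 was at 0.03 without HF-KO-2 and LF-KO-4. Cyp2c37 was at 0.03 with library size alone, 0.02 with the block and 0.03 without LF-KO-4 (DESeq2 0.03, limma-voom 0.0, gene-length offsets 0.05). Alas2 was at 0.0 by limma-voom without HF-KO-2 and at -0.04 without HF-KO-2 and LF-KO-3. Rxrb was at 0.07 with library size alone, and Rxra at 0.07 with library size alone, 0.01 without HF-KO-2 (limma-voom 0.02) and 0.11 without HF-KO-2 and LF-KO-4. With single libraries left out, the lowest log2 fold changes by any of the 3 tools were -0.64 for Susd4, -0.30 for Cyp2c37 and -0.31 for Rxra. The cause was not tested. Over the named genes, 6914 of the recomputed values kept direction and side of the threshold, 1356 lost the threshold, 476 gained it and 14 changed sign. There were 4 livers on the low fat diet, and read depth was not varied.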

Other observations

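Immunoglobulin receptors of phagocytes were also read: of 4 Fc gamma receptor genes, picked after their values had been seen, edgeR called 2 higher between HF-KO and LF-KO, with a family median of 1.19 on the log2 scale. The family of lipoprotein assembly genes had a median of -0.43, with 5 of 12 called lower and 0 higher.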
